A study of Mus musculus with 6 samples.

Results

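Growth cone and immature neuron genes were followed in mouse cortical neurons grown on a control surface, with a peptide amphiphile, or with the amphiphile and a conducting polymer. The set held 36 genes, taken by symbol from a list of proteins of the growing axon tip and of young neurons, among 54232 Ensembl genes in the count files. All 36 were found under 1 identifier each, and all 36 passed the filter on low counts, which kept 17299 genes. The 6 RNA sequencing libraries came from wild-type cortical neurons of CD1, an outbred mouse stock. They fell into 3 groups of 2, numbered as repeats 1 and 2 of each group. The control libraries carry PDL in their names. The PA libraries (peptide amphiphile) carry IKVAV, a laminin-derived peptide sequence. The PA + PS2 libraries carry IKVAV together with PEDOT-S, PEDOT being a conducting polymer, and an added OH. The treatment label is the same for all 6 libraries, controls included, and names the peptide amphiphile. Nothing in the sources used here states the animals' age, how long the cells were cultured or how much of each agent was given. Whether a repeat is another culture, another animal or a technical repeat is not said by the labels either, and the p-values therefore cover the spread among these libraries only.

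Growth cones are the motile tips of growing axons and dendrites, built on dynamic microtubules inside and on actin under the membrane. Doublecortin proteins and structural microtubule-associated proteins stabilise microtubules, stathmins destabilise them, and GAP-43, BASP1 and the MARCKS proteins act at the inner face of the membrane where actin is remodelled. The transcription factors Sox4 and Sox11 are high in newly born neurons, and ELAVL proteins and Rbfox3 (NeuN) bind neuronal RNA. Many of these genes are lowered as neurons mature, whereas Map2, Map1a and Rbfox3 persist or increase in mature neurons.

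The neuronal label was borne out by markers. Summed over 8 neuronal markers (Tubb3, Snap25, Syt1, Syn1, Slc17a7, Slc17a6, Gad1 and Gad2), the level was 3468 to 3992 CPM (counts scaled to a library of 1000000, here with TMM factors), and no neuronal marker was at 0. Tubb3 alone made 1633 to 1931 CPM of that sum. The libraries held 30714311 to 33923681 counts, so 1 CPM stood for 30.7 to 33.9 counts. Summed over the 36 genes, the control libraries had 38581 and 42664 CPM, the PA libraries 39523 and 40691 CPM, and the PA + PS2 libraries 42254 and 42424 CPM. The set took 3.89% to 4.25% of all counts, and its sums overlapped between the groups.

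In PA + PS2 most of the 36 fold changes were small and a few were larger, with calls that depended on the model. Against the control, 20 of 36 lay within 0.1 of no change on the log2 scale (55.6%, beside 39.1% of all genes tested and 64.0% of the 2622 that averaged at least 100 CPM). Beyond 0.3 lay 4 of 36 (11.1%, beside 27.4% and 3.97%), all of them higher: the cannabinoid receptor gene Cnr1, the transcription factor genes Sox4 and Sox11, and Igfbpl1. Cnr1 rose by 30.1% in PA + PS2 when the repeat number was a term of the model, and was the only one of the 36 past the threshold there (edgeR with the repeat block, adjusted p = 0.0215). Without that term, 0 of 36 passed in edgeR's quasi-likelihood test, as did 0% of all 17299 genes (smallest adjusted p among the 36 = 0.384, 4 of 36 at unadjusted p under 0.05). DESeq2 without the block called 2, Cnr1 and Igfbpl1, and with the block 3, Cnr1, Sox11 and Sox4. All of these were higher. Of all genes tested, 0.121% were called higher and 0.578% lower in edgeR with the block, 0.116% and 0.636% in DESeq2, and 0.243% and 1.37% in DESeq2 with the block. The median log2 fold change over the 36 was 0.06 (range -0.24 to 0.88, 25 above 0), beside 0.01 over all genes tested. Within repeats it was 0.10 in repeat 1 and -0.01 in repeat 2, and without control 1 it was -0.01 and without control 2 it was 0.12. With the block, the count past the threshold rose without either PA library or without PA + PS2 1. Calls over all genes rose in those fits too, and Map1a passed there as lower. The count fell without either control or PA + PS2 2. The fold changes of the 36 had an SD of 0.19, and the median standard error of a single gene was 0.09. These were 0.13 and 0.08 for the 2622 genes, and 0.48 and 0.19 for all genes tested. The widest value of the 36, 0.88, was that of Igfbpl1, which averaged only 50.2 CPM over the 6 libraries. That value enters the SD of 0.19, although Igfbpl1 is not among the 2622 genes, so the 2 SDs are not fully alike.

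At an unadjusted p under 0.05, 4 of the 36 were higher and 0 lower in PA + PS2 than in the control, which is 11.1% and 0% of the set, beside 2.20% and 4.61% of all genes tested. With the block 6 were higher (16.7%, beside 4.36%) and 1 was lower (2.78%, beside 7.11%). High expression sharpens the test, and 35 of the 36 averaged at least 100 CPM. Among the 2622 genes at that level or above, 4.08% were higher and 4.23% lower at an unadjusted p under 0.05, and 8.31% and 6.79% with the block. The libraries of PA + PS2 lay wholly above those of the control for 10 of the 36 (27.8%, beside 16.6% of all genes and 19.9% of the 2622) and wholly below for 4 (11.1%, beside 17.1% and 15.6%). In both repeats, 17 of the 36 were higher than the control of the same number (47.2%, beside 29.7% of all genes and 37.1% of the 2622) and 5 were lower (13.9%, beside 28% and 26.5%). The list's choice was made with earlier results known, so these shares describe it and carry no test of their own.

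**Figure D1:**
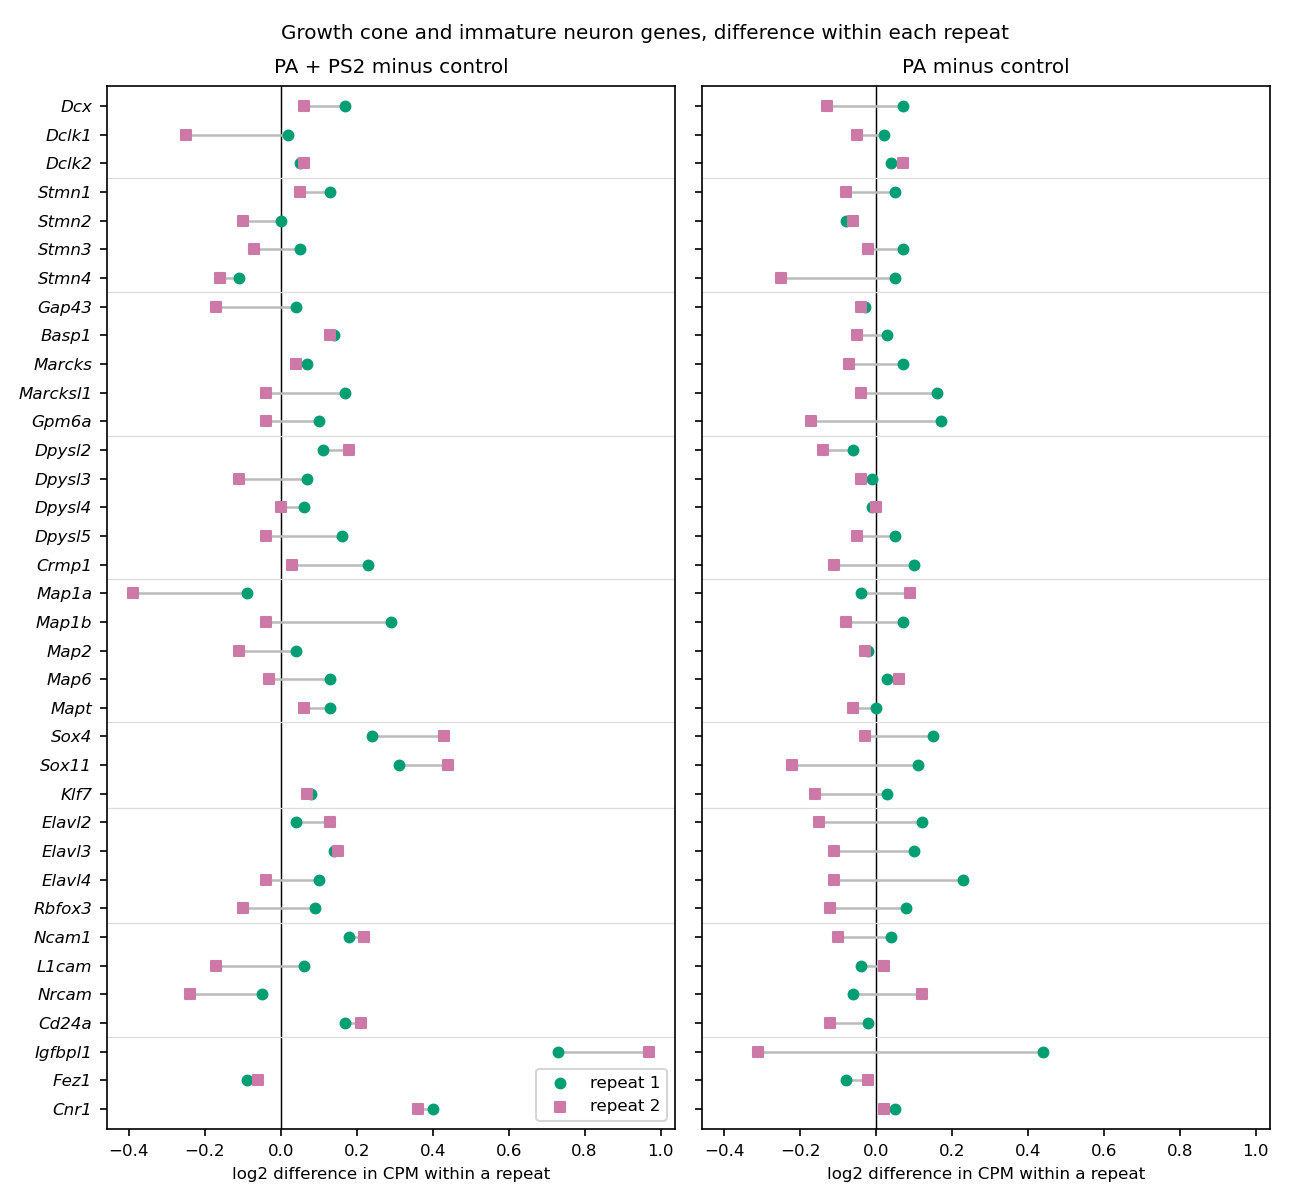
Log2 difference in CPM (prior count 2) of PA + PS2 against control (left) and PA against control (right) for the 36 genes, with a circle for repeat 1, a square for repeat 2 and a line joining them, and grey rules between groups of related genes. On the left Cnr1 (0.40 and 0.36), Sox11 (0.31 and 0.44), Sox4 (0.24 and 0.43) and Igfbpl1 (0.73 and 0.97) stand to the right of 0 in both repeats, while most others lie near 0 or on either side of it.

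Cnr1 encodes the CB1 cannabinoid receptor, a G protein-coupled receptor of axons and growth cones. It lies on chromosome 4 (33924593 to 33948831, GRCm38). Its level was 269 and 278 CPM in controls 1 and 2, 278 and 281 CPM in PA, and 356 and 355 CPM in PA + PS2. Both PA + PS2 libraries thus stood well above the other 4, which differed from each other by far less. The log2 fold change was 0.38 (SE 0.07) against the control (edgeR adjusted p = 0.384, and 0.0215 with the block) and 0.35 (SE 0.07) against PA (adjusted p = 0.317, and 0.0206 with the block). DESeq2 called Cnr1 in each comparison (adjusted p = 0.000717 and 0.00182). The difference was between 0.36 and 0.40 against the control in each of the 22 other settings and libraries left out. With the block, the call against the control was lost without control 1 (edgeR adjusted p = 0.26), control 2 (0.37) or PA + PS2 2 (0.113), and the one against PA without PA + PS2 2 (0.0971).

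Sox4 and Sox11 encode related high-mobility-group transcription factors that switch on genes of early neuronal differentiation. Sox11, on chromosome 12 (27334264 to 27342574), was at 726 and 884 CPM in the control libraries, 786 and 761 in the PA libraries, and 899 and 1202 in the PA + PS2 libraries. The lower PA + PS2 library lay only just above the higher control. Sox4, on chromosome 13 (28948919 to 28953713), was at 231 and 294 CPM in the control libraries, 256 and 288 in the PA libraries, and 272 and 397 in the PA + PS2 libraries. For Sox4 the groups overlapped, because PA + PS2 1 lay below control 2, although each PA + PS2 library lay above the control of its own repeat. The log2 fold changes against the control were 0.38 (SE 0.15) for Sox11 and 0.35 (SE 0.20) for Sox4 without the block (edgeR adjusted p = 0.690 and 0.863). With the block their adjusted p in edgeR was 0.136 and 0.10. DESeq2 with the block called both higher (adjusted p = 0.0205 and 0.0393). PA + PS2 2 carried much of the size: without it the differences were 0.16 and 0.05 without the block, and 0.22 and 0.19 with it. Klf7, a Krüppel-like factor of axon growth, was at 149 and 169 CPM in the control libraries, 152 and 152 in the PA libraries, and 157 and 178 in the PA + PS2 libraries. PA + PS2 overlapped with the control (log2 fold change 0.08, edgeR adjusted p = 0.980) and lay above both PA libraries.

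The bases ahead of the RefSeq start site (GRCm38.p6) are shown for Cnr1, Sox11 and Sox4, the genes called higher against the control by DESeq2 with the block, 5′ to 3′ on the gene's strand and without transcribed bases. RefSeq promoters were found for 23 of the 36 genes. Capitals mark matches on either strand to 6 motifs searched: TGACGTCA (cAMP response element), TATAAA (the core promoter element of that name), CCAAT (bound by NF-Y), GGGCGG (GC box), CAGCTG (an E-box) and ACAAAG (a SOX motif).
Cnr1, chr4:33924014-33924263, plus strand: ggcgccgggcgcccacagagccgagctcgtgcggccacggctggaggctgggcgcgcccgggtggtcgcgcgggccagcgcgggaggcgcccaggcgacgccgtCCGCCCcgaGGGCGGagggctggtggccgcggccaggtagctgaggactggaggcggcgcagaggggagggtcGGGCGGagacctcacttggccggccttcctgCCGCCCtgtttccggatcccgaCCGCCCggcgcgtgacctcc
Sox11, chr12:27342719-27342968, minus strand: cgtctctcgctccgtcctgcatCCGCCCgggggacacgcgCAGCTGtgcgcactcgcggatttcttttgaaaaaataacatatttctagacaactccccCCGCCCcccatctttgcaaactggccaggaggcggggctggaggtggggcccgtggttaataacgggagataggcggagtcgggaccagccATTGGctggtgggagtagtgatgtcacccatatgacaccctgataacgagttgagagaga
Sox4, chr13:28953714-28953949, minus strand: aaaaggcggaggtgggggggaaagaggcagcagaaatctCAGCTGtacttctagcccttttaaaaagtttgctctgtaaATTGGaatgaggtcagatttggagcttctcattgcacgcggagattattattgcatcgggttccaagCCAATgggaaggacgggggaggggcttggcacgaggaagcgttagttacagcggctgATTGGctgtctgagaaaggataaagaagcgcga
The most upstream of 3 RefSeq starts was used for Cnr1, and the Sox4 window was cut at the first base of an annotated exon. The Cnr1 window held 5 GC boxes and no other match, at 79.2% G and C. The Sox11 window held 2 GC boxes, 1 CCAAT and 1 E-box, and the Sox4 window 3 copies of CCAAT and 1 E-box. Over all 32851 windows of 250 bases before a start in the same table, a GC box was present in 32.7%, CCAAT in 33.8%, the E-box in 13.0%, the SOX motif in 16.5%, TATAAA in 12.4% and the cAMP response element in 1.55%. No motif was shared by all 3 windows. A match describes the letters only.

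Igfbpl1 encodes a secreted protein related to insulin-like growth factor binding proteins. It was the lowest of the set per base of exon (12 CPM per kilobase in the control). It was at 32.3 and 45.5 CPM in the control libraries, 44.0 and 36.6 in the PA libraries, and 53.6 and 89.2 in the PA + PS2 libraries, so both PA + PS2 libraries lay above the other 4. The log2 fold change was 0.88 (SE 0.28) against the control and 0.83 (SE 0.28) against PA. It passed in DESeq2 without the block (adjusted p = 0.0453 and 0.0487) and not in DESeq2 with the block (0.304 and 0.433). In edgeR with all 6 libraries it did not pass (0.667 and 0.565, with the block 0.386 and 0.425). With only the 2 groups and the block, edgeR called it against the control, among 705 of 16750 genes, and not against PA. Without PA + PS2 2 it was 0.46 against the control and 0.41 against PA.

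Cd24a, a small glycosylated surface protein of newly formed neurons, was at 676 and 706 CPM in the control libraries, 666 and 649 in the PA libraries, and 761 and 820 in the PA + PS2 libraries. The PA + PS2 libraries were the 2 highest and the PA libraries the 2 lowest. Its log2 fold change was 0.19 (SE 0.07) against the control (edgeR adjusted p = 0.678, with the block 0.254) and 0.27 (SE 0.07) against PA (0.430, with the block 0.0831). DESeq2 with the block called it against PA (adjusted p = 0.0342). Ncam1, the neural cell adhesion molecule, was at 1029 and 1166 CPM in the control libraries, 1060 and 1087 in the PA libraries, and 1169 and 1360 in the PA + PS2 libraries. PA + PS2 1 was above control 2 by only a few CPM, and the log2 fold change was 0.20 (SE 0.10, edgeR adjusted p = 0.764, with the block 0.251). The adhesion molecules of the L1 family did not share that direction. L1cam had a log2 fold change of -0.05 and Nrcam of -0.14 (edgeR adjusted p = 0.993 and 0.897), with both PA + PS2 libraries of Nrcam (379 and 343 CPM) below both controls (392 and 404 CPM).

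**Figure D2:**
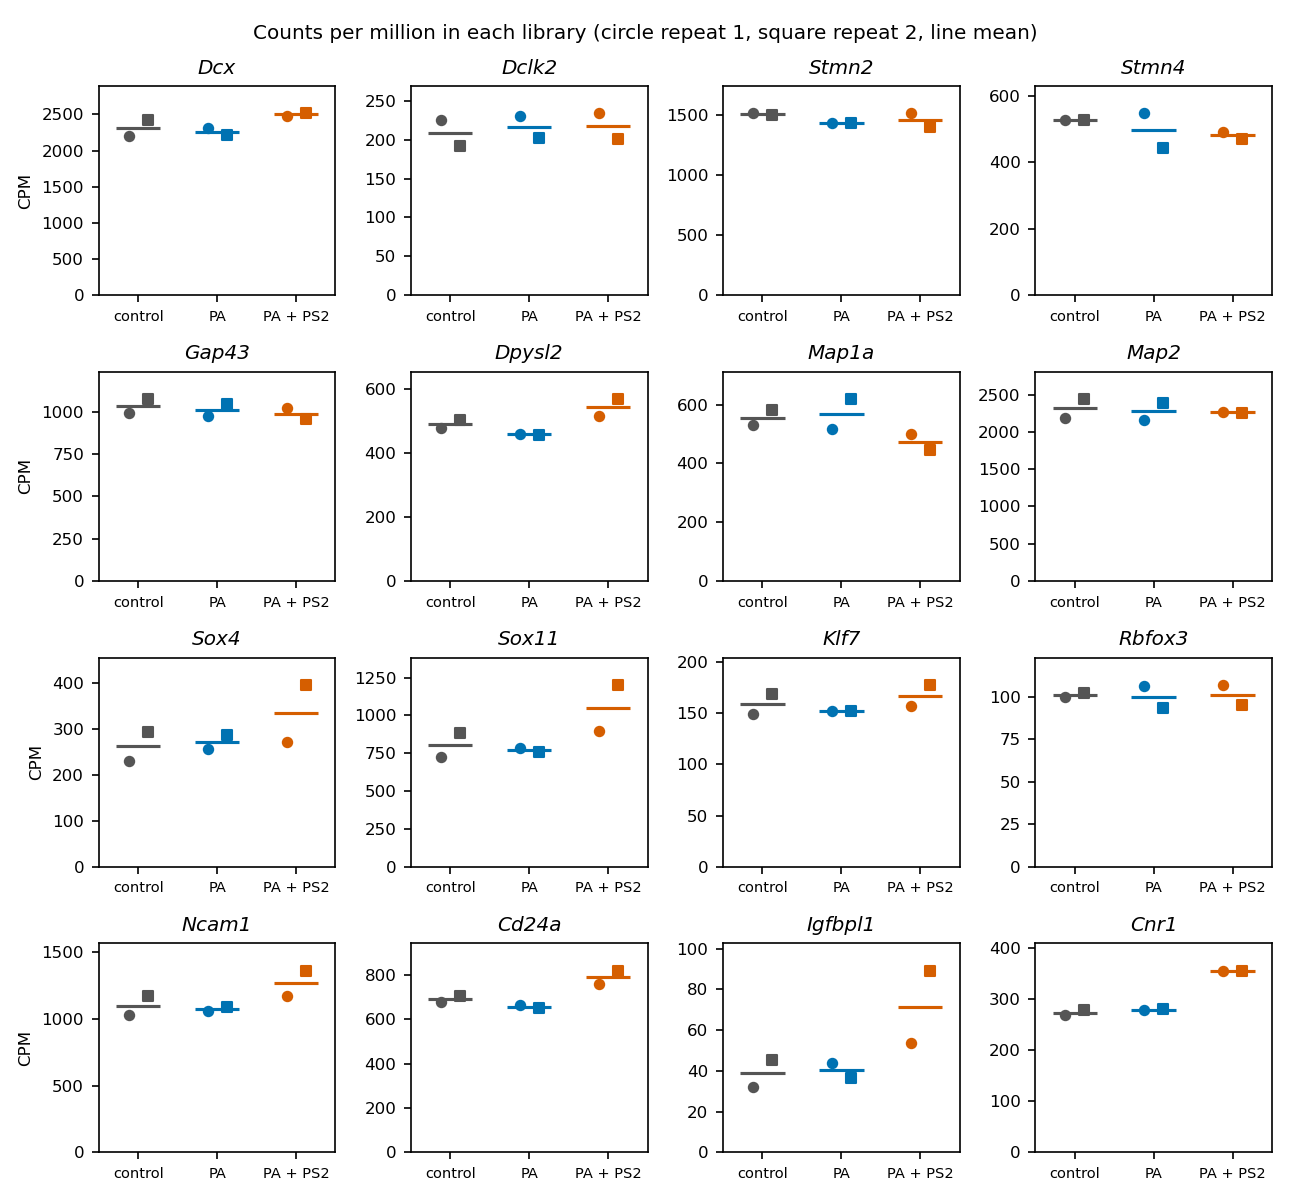
CPM in each library for the 16 genes with full values, by group on the horizontal axis, with a circle for repeat 1, a square for repeat 2 and a line at the mean of the 2, on vertical axes that start at 0. Cnr1 shows 2 nearly equal PA + PS2 values (356 and 355 CPM) above 4 values between 269 and 281 CPM, whereas Sox4, Sox11 and Igfbpl1 have their highest value in PA + PS2 2. Gap43, Map2 and Rbfox3 have overlapping groups, and Stmn2 is lower in both PA libraries than in both controls.

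None of the 3 genes of the doublecortin family passed the test. Dcx, the X-linked doublecortin gene of migrating neurons, was at 2206 and 2420 CPM in the control libraries, 2315 and 2211 in the PA libraries, and 2484 and 2516 in the PA + PS2 libraries. Its PA + PS2 libraries were the 2 highest, with a log2 fold change of 0.11 (SE 0.08, edgeR adjusted p = 0.904). Its relatives, the doublecortin-like kinase genes, had log2 fold changes of -0.11 (Dclk1) and 0.06 (Dclk2). Dclk2 was at 225 and 192 CPM in the control libraries, 231 and 202 in the PA libraries, and 234 and 201 in the PA + PS2 libraries, so its repeats differed more than its groups.

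Gap43, the growth-associated phosphoprotein of regenerating axons, was at 995 and 1076 CPM in the control libraries, 975 and 1044 in the PA libraries, and 1023 and 956 in the PA + PS2 libraries. The 3 groups overlapped, and the log2 fold change of PA + PS2 against the control was -0.07 (SE 0.08, edgeR adjusted p = 0.980). The other membrane-associated growth cone genes ran from 0.03 (Gpm6a, a membrane glycoprotein of neurites) to 0.14 (Basp1), with Marcks and Marcksl1 at 0.06 each. None of these 5 genes had groups that stood apart. Basp1 was at 1311 and 1628 CPM in the control and 1442 and 1785 CPM in PA + PS2, and its log2 differences within repeats were 0.14 and 0.13, smaller than its gap between repeats.

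Stathmins, which bind tubulin dimers and favour microtubule disassembly, had no common direction, and 0 of 4 passed. Stmn2 (SCG10), an axonal stathmin, was at 1514 and 1502 CPM in the control libraries, 1432 and 1437 in the PA libraries, and 1513 and 1402 in the PA + PS2 libraries. Stmn2 in PA + PS2 overlapped with the control, and both PA libraries lay below both controls. Stmn4 was at 527 and 527 CPM in the control libraries, 547 and 444 in the PA libraries, and 490 and 471 in the PA + PS2 libraries. Of the 4 stathmins only Stmn4 had PA + PS2 libraries apart from the control, with a log2 fold change of -0.13 (SE 0.10, edgeR adjusted p = 0.926). Stmn1 and Stmn3 had values of 0.09 and -0.01.

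Collapsin response mediators carry guidance signals to the cytoskeleton. In this family 4 of 5 were above 0 in PA + PS2 against the control, from -0.02 (Dpysl3) through 0.03 (Dpysl4) and 0.06 (Dpysl5) to 0.13 (Crmp1) and 0.14 (Dpysl2), and 0 of 5 passed. Dpysl2 (CRMP2) was at 479 and 501 CPM in the control libraries, 459 and 456 in the PA libraries, and 516 and 568 in the PA + PS2 libraries. The 3 groups did not overlap, with PA lowest and PA + PS2 highest. Against PA its log2 fold change was 0.24 (SE 0.08, edgeR adjusted p = 0.466, with the block 0.108).

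Structural microtubule-associated proteins differed among themselves. Map1a, a microtubule-associated protein of mature dendrites, was at 531 and 581 CPM in the control libraries, 517 and 619 in the PA libraries, and 500 and 444 in the PA + PS2 libraries. Both PA + PS2 libraries were below the other 4, and the log2 fold change was -0.24 (SE 0.11, edgeR adjusted p = 0.747, with the block 0.341). Its difference within repeats was -0.09 and -0.39. Map1b, the relative that prevails in young axons, was at 5040 and 6490 CPM in the control and 6143 and 6304 CPM in PA + PS2, a log2 fold change of 0.11 (SE 0.13). The direction of Map1b was not the same in the repeats (0.29 and -0.04). Map2, the dendritic microtubule protein, was at 2192 and 2441 CPM in the control libraries, 2165 and 2391 in the PA libraries, and 2261 and 2260 in the PA + PS2 libraries, with overlapping groups. Mapt (tau) and Map6, a protein of cold-stable microtubules, had log2 fold changes of 0.09 and 0.05. Map1a shares 272 bases of exon with the antisense gene Ppip5k1, and Ncam1 shares 417 bases with the antisense Gm11149. No source used here says if strand was used in counting, and these 2 genes are uncertain to that extent. Exons of another gene on the opposite strand overlapped 6 of the 36 in all, among them Sox4 with Gm26735, which had a count of 0.

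None of the 4 genes of RNA-binding proteins passed. Rbfox3, the NeuN antigen of postmitotic neurons, was at 100 and 102 CPM in the control libraries, 106 and 93.4 in the PA libraries, and 107 and 94.9 in the PA + PS2 libraries, with a log2 fold change of 0.00 (SE 0.09). Elavl2, Elavl3 and Elavl4, which stabilise neuronal mRNA, had log2 fold changes of 0.09, 0.15 and 0.03 (edgeR adjusted p of 0.829 or more). For Elavl3 the PA + PS2 libraries (743 and 786 CPM) lay above both controls (675 and 706 CPM) and both PA libraries (725 and 656 CPM). Fez1, a kinesin adaptor of axonal transport, had a log2 fold change of -0.07, with both PA + PS2 libraries (385 and 379 CPM) below both controls (409 and 396 CPM).

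PA + PS2 was next set against PA, a comparison that shares the PA + PS2 libraries with the one above. The median log2 fold change of the 36 was 0.05 (range -0.27 for Map1a to 0.83 for Igfbpl1, 26 above 0), beside 0.00 over all genes tested. In edgeR 0 of 36 passed without the block, beside 0% of all genes. With it only Cnr1 passed and rose, beside 0.202% of all genes called higher. DESeq2 called Cnr1 and Igfbpl1 higher (0.15% of all genes higher, 1.01% lower), and with the block Cnr1, Sox11 and Cd24a (0.329% and 1.77%). At an unadjusted p under 0.05, 6 were higher and 1 was lower in edgeR (2.26% and 5.44% of all genes), and 7 and 1 with the block (4.07% and 7.81%). Among the 2622 genes at 100 CPM or more these shares were 4.16% and 4.23%, and 7.67% and 7.13% with the block. In both repeats 18 of the 36 were above the PA library of the same number (50%, beside 26.8% of all genes and 33.4% of the 2622) and 3 were below (8.33%, beside 27.7% and 23.5%). The groups stood apart for 13 higher (36.1%, beside 16.7% of all genes and 21.7% of the 2622) and 2 lower, Map1a and Fez1 (5.56%, beside 18.4% and 15.9%). Leaving out PA 1 or PA + PS2 1 raised the number of members past the threshold with the block, with both higher and lower ones called. Calls over all genes rose in both fits too. Leaving out PA + PS2 2 lowered both the members' number and the calls over all genes.

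PA alone left the set close to the control. All 36 lay within 0.1 of no change without the block (range -0.10 to 0.05, median -0.01, 11 above 0), and so did 54.8% of all genes tested and 95.3% of the 2622 genes at 100 CPM or more. None of the 36 had an unadjusted p under 0.05 in edgeR with or without the block, beside 0.335% and 0.26% of all genes higher and lower without it and 0.879% and 0.572% with it. DESeq2 also called 0 of 36 with or without the block. The groups stood apart for 2 higher (Map6 and Cnr1, 5.56%, beside 12.1% of all genes and 7.82% of the 2622). They stood apart for 5 lower (Stmn2, Dpysl2, Dpysl3, Cd24a and Fez1, 13.9%, beside 9.69% and 7.28%). In both repeats 3 of the 36 were above the control of the same number (8.33%, beside 24.5% of all genes and 19% of the 2622) and 8 were below (22.2%, beside 20.5% and 19.7%). With the block, 1 member (Igfbpl1, log2 0.50, edgeR adjusted p = 0.0394) passed when PA 2 was left out, and its direction was the other one when PA 1 was left out (-0.38).

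Other genes of growth cones and young neurons were read from a list of 59, of which 58 passed the filter (Nhlh1 did not). Against the control their median log2 fold change in PA + PS2 was 0.02 (32 of 58 above 0). Beyond 0.3 in either direction lay 9 of 58 (15.5%), beside 11.1% of the 36 genes, 27.4% of all genes and 3.97% of the 2622. At an unadjusted p under 0.05, 7 of 58 were higher and 4 of 58 lower, beside 2.20% and 4.61% of all genes. In edgeR with the block these were 10 of 58 and 4 of 58, beside 4.36% and 7.11%. Among the 2622 genes these shares were 4.08% and 4.23%, and 8.31% and 6.79% with the block. The higher ones were thus a larger share than in either background, which was not particular to the 36. Those beyond 0.3 held falls as well as rises, with values of the 58 from -0.68 to 1.02. Without the block 0 of 58 passed. With it 0 rose and 1 fell, the lipid phosphatase-related Plppr4, at 394 and 397 CPM in the control libraries, 358 and 408 in the PA libraries, and 308 and 305 in the PA + PS2 libraries (log2 -0.37, SE 0.07, edgeR adjusted p = 0.0383). The background with the block was 0.121% of genes higher and 0.578% lower. Against PA, 2 rose and 2 fell with the block, beside 0.202% and 1.32%. Draxin, a secreted axon guidance protein, rose (log2 0.40, SE 0.08, edgeR adjusted p = 0.0262), as did Rnd2, a small GTPase of migrating neurons (0.46, SE 0.10, 0.0471), at 26.1 and 29.9 CPM in the PA libraries and 33.2 and 44.6 CPM in the PA + PS2 libraries. Nde1, a dynein partner of dividing progenitors, fell (-1.11, SE 0.23, 0.0347), as did Plppr4 (-0.32, SE 0.07, 0.0449). The PA + PS2 libraries had 104 and 83.5 CPM of Draxin and the PA libraries 79.4 and 62.5 CPM, so these groups stood apart although its repeats differed.

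A list of 32 genes of mature neurons was set beside them. Their median log2 fold change in PA + PS2 against the control was -0.07 (13 of 32 above 0), with 0.02 within repeat 1 and -0.17 within repeat 2. None of the 32 passed against the control in edgeR with or without the block. At an unadjusted p under 0.05, 1 of 32 was higher and 4 of 32 lower, beside 2.20% and 4.61% of all genes. With the block 2 of 32 were higher and 11 of 32 lower. The shares with the block were 4.36% and 7.11% of all genes, and 8.31% and 6.79% of the 2622. The 11 lower are thus a larger share than in either background. Gad1, an enzyme of GABA synthesis, had the smallest p with the block there, at 380 and 340 CPM in the control libraries, 394 and 320 in the PA libraries, and 307 and 272 in the PA + PS2 libraries (edgeR adjusted p = 0.0565, DESeq2 with the block 0.0123). Gad1 fell against PA with the block (log2 -0.30, SE 0.07, edgeR adjusted p = 0.0485) and was the only one of the 32 to pass there. The postsynaptic scaffold Shank2 (log2 0.24) and the surface glycoprotein Thy1 (-0.36) followed by p with the block, with edgeR adjusted p = 0.176 and 0.189.

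**Figure D3:**
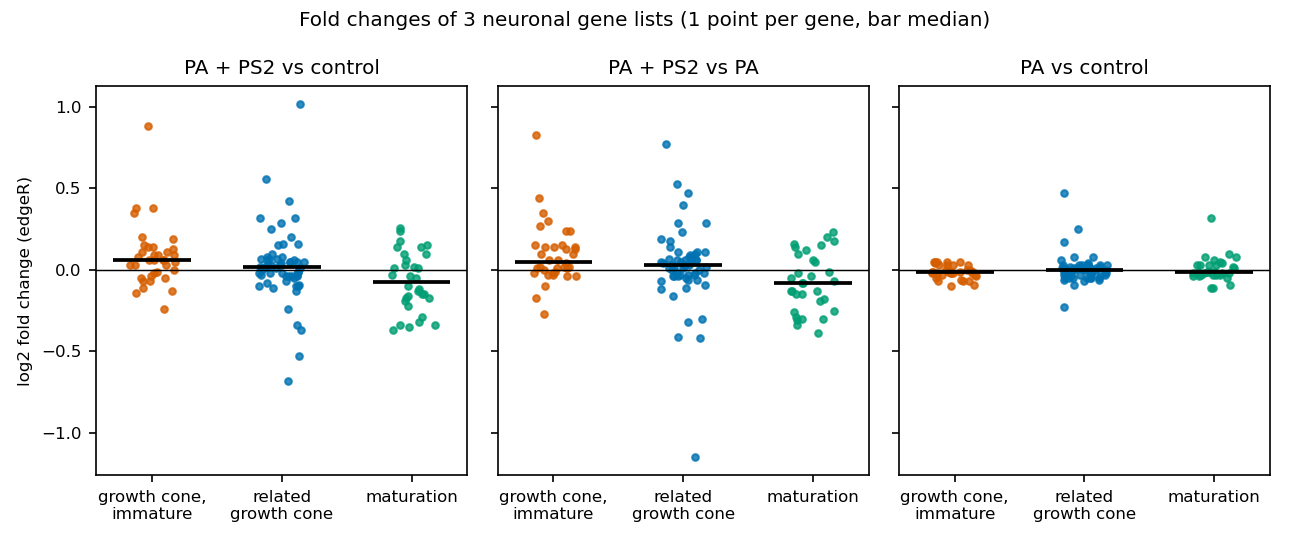
Log2 fold changes (edgeR without the block, 1 point per gene, horizontal jitter for display only) of the 36 growth cone and immature neuron genes, 58 related genes and 32 maturation genes in the 3 comparisons, with a bar at each median. In PA + PS2 against control the medians are 0.06, 0.02 and -0.07, and in PA against control all 3 lie within 0.01 of 0.

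Markers of other cells differed between the same groups. In edgeR with the block, PA + PS2 against the control, 6 of 11 cycling markers, 3 of 11 progenitor markers and 1 of 5 oligodendrocyte precursor markers (Cspg4) fell, as did 1 of 9 fibroblast and mural markers (Mgp), beside 0.578% of all genes. Of 6 oligodendrocyte markers 1 rose (Cldn11), beside 0.121% of all genes. In edgeR without the block none of these passed. Cldn11 and Mgp rested on few counts. Cldn11 was at 0.0298 and 0.149 CPM in the control libraries and 0.924 and 1.46 in the PA + PS2 libraries. Mgp was at 0.328 and 1.4 CPM in the control libraries and 0.0319 and 0 in the PA + PS2 libraries. Summed over 5 oligodendrocyte precursor markers (Pdgfra, Cspg4, Olig1, Olig2 and Sox10), the level was 33.4 and 80.5 CPM in the control libraries, 23.7 and 122 in the PA libraries, and 7.91 and 6.30 in the PA + PS2 libraries. Over 11 markers of cycling cells it was 126 and 215, 143 and 279, and 82.0 and 91.8 CPM, and over 11 progenitor markers 315 and 537, 373 and 717, and 238 and 277 CPM. In these 3 lists the PA + PS2 libraries were the lowest, and no marker was at 0 in any library. Oligodendrocyte markers were highest in PA + PS2: summed over 6 genes, the control libraries had 40.1 and 39.7 CPM, the PA libraries 50.8 and 42.4 CPM, and the PA + PS2 libraries 59.4 and 85.6 CPM, with Mag and Mobp at 0 in at least 1 library. Fibroblast and mural markers (9 genes) were at 135 and 155 CPM in the control libraries, 170 and 97.5 in the PA libraries, and 98.7 and 39.4 in the PA + PS2 libraries, with Mgp at 0 in at least 1 library. Astrocyte markers (9 genes) spanned 192 to 332 CPM with overlapping groups, but Slc1a2 alone made 163 to 215 CPM of that. The median log2 fold change of the 9 in PA + PS2 was -0.69 against the control, with 6 of 9 below 0. Against PA it was -1.17, with 8 of 9 below 0. In edgeR with the block 0 of these passed against the control and 3 fell against PA, beside 1.32% of all genes. Endothelial markers (5 genes) spanned 4.61 to 10.3 CPM and microglial markers (6 genes) 2.96 to 5.08 CPM. Among those 3 lists S100b, Cldn5, Cdh5, Cx3cr1 and P2ry12 were at 0 somewhere. The 8 neuronal markers had a median log2 fold change in PA + PS2 of -0.10 against the control (5 of 8 below 0) and -0.16 against PA (6 of 8 below 0). Against the control 4 of 8 were lower at an unadjusted p under 0.05 in edgeR with the block, beside 7.11% of all genes and 6.79% of the 2622. All of them but Tubb3 are also on the list of 32 genes of mature neurons. The part of these cell type markers in the differences of Cnr1, Sox4, Sox11, Igfbpl1, Cd24a and Ncam1 was not tested. In such bulk libraries fewer cells of a type and less RNA per cell cannot be told apart.

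**Figure D4:**
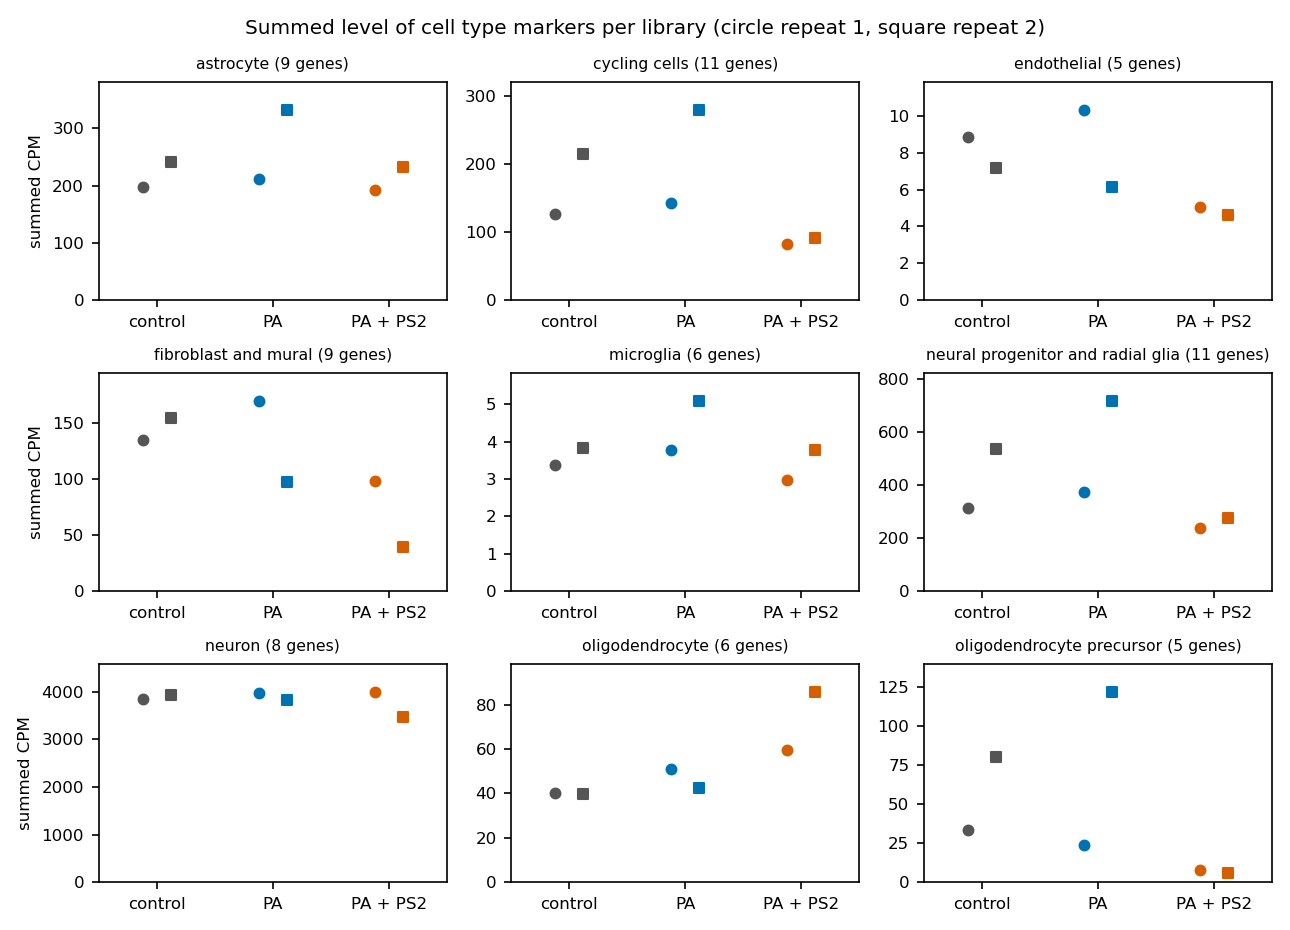
Summed CPM of 9 lists of cell type markers in each library, by group on the horizontal axis, with a circle for repeat 1 and a square for repeat 2, on axes that start at 0. Neuronal markers range from 3468 to 3992 CPM, of which Tubb3 alone makes 1633 to 1931 CPM. Oligodendrocyte precursor markers are at 33.4 and 80.5 CPM in the control and at 7.91 and 6.30 CPM in PA + PS2, and oligodendrocyte markers are highest in PA + PS2 (59.4 and 85.6 CPM).

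Per kilobase of exon, the order of levels in the control began with Marcksl1 (870 CPM per kilobase), Dpysl3 (778), Basp1 (731) and Gap43 (680), and then fell to Stmn3 (425), Mapt (405) and Gpm6a (402). Dcx was at 183 and Map2 at 141 CPM per kilobase. Sox11 (96.9), Sox4 (54.7) and Cnr1 (42.4) stood in the lower part, and Dpysl4 (17.3), Rbfox3 (17.3) and Igfbpl1 (12) at the end. Mapt and Gpm6a, neighbours in that order, differed by less than the spread of their control libraries, as did Dpysl4 and Rbfox3. Between the repeat numbers, 8 were higher in repeat 2 in all 3 groups (Basp1, Klf7, Map1b, Mapt, Marcks, Marcksl1, Ncam1 and Sox4) and 4 were lower in all 3 (Dclk2, Dpysl4, Stmn1 and Stmn4). These are 22.2% and 11.1% of the set, beside 19.9% and 19.9% of all genes tested. A difference between repeats was thus not particular to the set.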

How the data were processed

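The authors deposited raw counts per Ensembl gene, 1 library per file, per the file headers. Among tools, the submitters' processing notes list STAR (2.7.5), cutadapt (4.2), DESeq2 (1.14.1) and HTSeq (2.0.2), and as genome mm10, without roles; per the labels' protocols, libraries came from a TruSeq Total RNA kit, whereas the molecule label names polyadenylated RNA. Neither the annotation nor the strand setting is stated there. Symbols, coordinates and exon lengths came from GENCODE M21 (GRCm38, also called mm10).

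Counts were fitted with edgeR 4.0.16 in R 4.3.3 (TMM, filterByExpr, robust quasi-likelihood F test, all 6 libraries in 1 model, 3 residual degrees of freedom, Benjamini-Hochberg over 17299 genes, threshold 0.05). Standard errors come from the fold change and the F statistic. The fit was tested on simulated data. CPM values are TMM-scaled. Fold changes within a repeat use log2 CPM with a prior count of 2. DESeq2 1.42.0 was an alternative.

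The differences of repeat 1 from repeat 2 in the control had a correlation of 0.35 with those in PA and 0.36 with those in PA + PS2, and the last pair of groups gave 0.21, so the numbers were taken to pair the libraries. This pairing comes from the data, since the labels name no shared litter, batch or day. The block leaves 2 residual degrees of freedom, and the biological coefficient of variation was 16.7% without it and 9.57% with it. Counts of a group's replicates differed by more than sampling noise, with chi-square over its degrees of freedom at 15.6 to 22.5.

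Values in all libraries were given for members past the threshold with or without the block, for the 6 smallest p with the block and the 3 without it in each comparison, and for Dcx, Gap43, Stmn2, Map2 and Rbfox3. From the other lists, genes past the threshold were named, or else the 3 with the smallest p with the block. The members and lists were chosen with earlier results of these data known, and the subset at 100 CPM after the values were seen. 1 marker gene is not reported here.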

Additional observations from a re-analysis of the deposited data

How the results depend on the processing

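Without the repeat block 0 of the 36 genes passed in any comparison under RLE size factors, library totals alone, at least 50 counts in 2 libraries, only the 2 groups compared, or any library left out. With no filter on low counts 2 passed for PA + PS2 against the control and 2 against PA (Cnr1 and Sox11 each time), and DESeq2 called 2 in each. With the repeat block the count was 1 in each of these comparisons, also with RLE size factors, 3 in each with DESeq2, and 4 against the control and 0 against PA with only the 2 groups. With the block and 1 library left out, which leaves 1 residual degree of freedom, it ran from 0 to 5 against the control (5 when either PA library was left out, 4 when PA + PS2 1 was, and 0 for either control or PA + PS2 2) and from 0 to 9 against PA (9 without PA 1, 8 without PA + PS2 1, 0 without PA + PS2 2, otherwise 1). For PA against the control it ran from 0 to 1. The repeat block moved the related genes past the threshold from 0 to 1 against the control and to 4 against PA, and the maturation genes from 0 to 1 against PA. The causes were not tested.

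The median of the 36 for PA + PS2 against PA was 0.05 in the main model and with RLE size factors, DESeq2, and DESeq2, RLE or only the 2 groups with the block, 0.04 with library totals alone, 0.06 with no filter or only the 2 groups. With a library left out it ran from 0.04 to 0.11, and from 0.01 to 0.12 with the block (0.08 without PA + PS2 2). Against the control it ran from -0.01 (without control 1) to 0.12 (without control 2), and from 0.01 to 0.13 with the block. No member past the threshold in any setting had the other sign in the main model. For the 16 genes with full values, picked largely by small p, the 22 other settings gave 352 values a comparison, passing or not. Of the 352, 8 for PA + PS2 against the control had the other sign without passing. The number was 20 against PA and 35 for PA against the control. With 2 libraries a group, the median standard error of a member was 0.09. Igfbpl1 at 0.88 (SE 0.28) did not pass in edgeR with all 6 libraries, with or without the block. A member that did not pass is therefore not shown to be equal between groups.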
